A study of Mus musculus with 28 samples.

Results

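Dendritic cells that the host sends into a kidney allograft were compared with the dendritic cells of a healthy kidney, both taken from the renal cortex. The comparison uses 7 of the 28 arrays of the series, chosen by the array titles alone: 3 arrays of host cortical cells and 4 arrays of homeostatic (healthy kidney) C57BL/6 cortical cells. Host cells were isolated from grafts 3 days after transplantation, from mouse numbers 6, 7 and 8, and homeostatic cells from mouse numbers 1, 2, 3 and 4, so the groups share no mouse. The series also holds host and homeostatic C57BL/6 cells of the medulla, donor cells of the same grafts (labelled BALB/c) and homeostatic BALB/c cells; these serve below only for tests of where the cortical host difference is unlike another.

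All kidneys were digested with collagenase and DNase, and cells were sorted by CD45 (the pan-leukocyte protein), CD11c and MHC class II. Within the grafts, host cells were further separated by CD45.1 and donor cells by CD45.2, alleles of the same protein. The labels give the host strain as C57BL/6; ordinary C57BL/6 mice carry CD45.2, and no congenic host line is named. The sources used here give no age or sex and do not say whether RNA was pooled, and a healthy kidney that was never operated on is the only baseline. Levels are log2 array signal, differences are log2 host minus homeostatic with their standard error from limma, and a gene passed when its Benjamini-Hochberg adjusted p over 14346 genes was under 0.05. Levels of different genes are not compared, since probesets differ in brightness.

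In the mouse kidney, a gate on CD11c and MHC class II holds resident macrophages as well as classical dendritic cells. Resident macrophages depend on the growth factor receptor CSF1R, carry the adhesion receptor of Adgre1 and CX3CR1, make the complement protein C1q and take up debris through mannose and scavenger receptors. Classical dendritic cells carry antigen to T cells, with type 1 cells specialised in presenting it to CD8 T cells and type 2 cells to CD4 T cells. Plasmacytoid dendritic cells are interferon producers marked by Siglec-H. After transplantation, host leukocytes reach the graft from the blood, while donor cells come with the organ.

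Some arrays stand apart or go against their labels, and this bears on every result. A list of 25 leukocyte-wide genes averaged 11.07, 10.25 and 9.21 in host replicates 1, 2 and 3, against 11.19 to 11.38 in the homeostatic arrays. A list of 22 proximal tubule genes averaged 10.47, 11.25 and 11.61 in the same host arrays, against 9.26 to 10.84 in the homeostatic arrays. Host replicate 1 thus lies close to the homeostatic arrays on both lists, and host replicate 3 lies farthest from them.

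The transcripts of the sorted proteins show the same order among the host arrays. Itgax, the CD11c gene, was at 10.62, 9.14 and 7.70 in host arrays, against 10.89, 11.32, 11.45 and 11.62 in homeostatic arrays (−2.16 ± 0.56, adjusted p = 0.026), and it lost its call without host replicate 2 or 3 or homeostatic replicate 2, 3 or 4 (adjusted p up to 0.26, without host replicate 3, where the difference was −1.44). H2-Ab1, the beta chain gene of the I-A class II molecule, was at 12.57, 11.45 and 11.23 in host arrays, against 13.09 to 13.33 in homeostatic arrays (−1.46 ± 0.40, adjusted p = 0.036), and its call ended without any 1 array other than host replicate 1 (adjusted p up to 0.23, without host replicate 3). Ptprc, which encodes CD45, did not pass (12.66, 12.11 and 10.35 in host arrays, against 12.66 to 12.92, adjusted p = 0.15).

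Genes that separate the strains were read in the host arrays. By the rule that all 8 homeostatic arrays of one strain lie more than 1.5 log2 units above all 8 of the other, 7 genes qualified, 2 higher in BALB/c and 5 higher in C57BL/6. H2-Ea, an MHC class II chain which the C57BL/6 haplotype does not express, was at 10.18, 11.78 and 11.18 in host cortical arrays, against 6.37 to 6.76 in homeostatic C57BL/6 cortex, 12.50 to 12.89 in donor cortex and 12.90 to 13.33 in all homeostatic BALB/c arrays. All host cortical arrays therefore lay above C57BL/6 and below BALB/c for H2-Ea (4.47 ± 0.47, adjusted p = 1.5e-06 against homeostatic C57BL/6); the gene was singled out after its values were seen. Ifi202b, the other gene higher in BALB/c, was at 5.47, 7.40 and 5.34 in host cortex, against 5.24 to 5.41 in homeostatic C57BL/6 cortex and 8.24 to 9.74 in BALB/c. Of the C57BL/6-high genes, Slamf7 was at 10.28, 9.22 and 8.24 in host cortex, against 11.45 to 12.04 in homeostatic C57BL/6 cortex and 7.06 to 9.12 in BALB/c. Trim12a was at 10.21, 7.36 and 6.81 in host cortex, against 9.85 to 11.20 in homeostatic C57BL/6 cortex and 6.34 to 6.63 in BALB/c. Nlrp1c-ps was at 7.90, 8.74 and 6.98 in host cortex, against 10.29 to 12.14 in homeostatic C57BL/6 cortex and 7.19 to 7.94 in BALB/c. Ly6e was at 12.56, 10.41 and 10.77 in host cortex, against 11.70 to 12.13 in homeostatic C57BL/6 cortex and 7.86 to 9.73 in BALB/c. Every host array thus lay above homeostatic BALB/c for Ly6e, and host replicate 1 also above homeostatic C57BL/6. The fifth, H2-Ob, is given with the class II genes. In donor cortex, Ifi202b was at 7.07 to 10.28, Slamf7 at 7.24 to 8.55 and Trim12a at 5.87 to 6.82. Nlrp1c-ps was there at 6.82 to 6.88 and Ly6e at 9.53 to 10.69. Host replicate 2 thus lay within the donor range for Ifi202b and Ly6e, and host replicate 3 for Slamf7 and Trim12a. For Nlrp1c-ps every host array lay above it. The part of strain or of donor RNA in the results below was not tested.

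**Figure D1:**
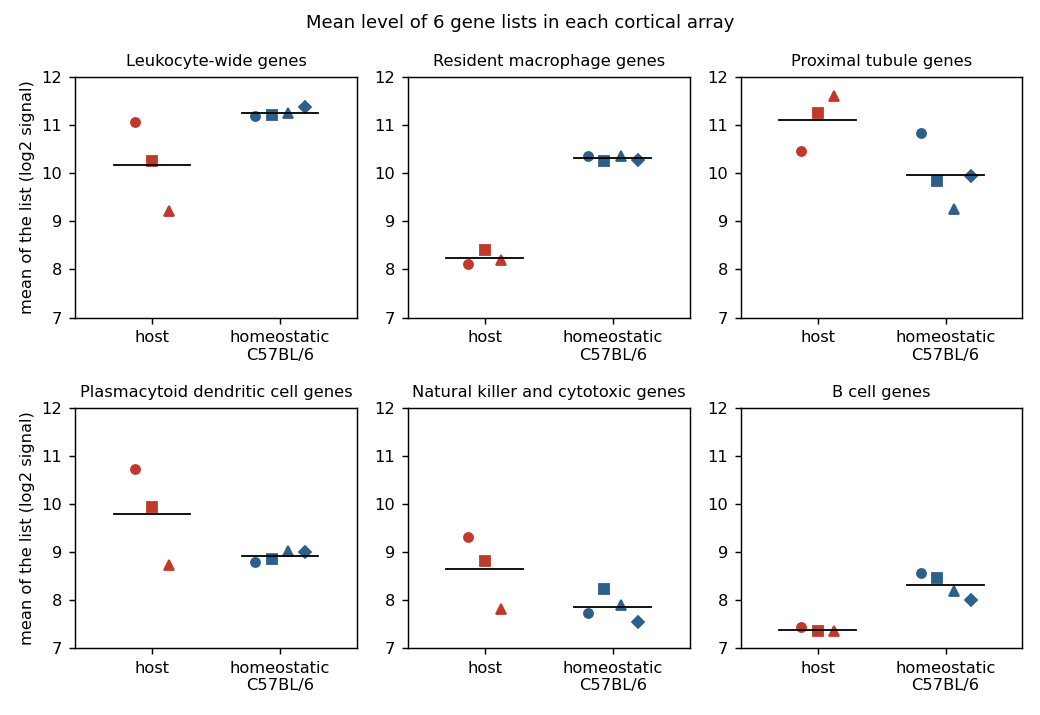
Mean log2 signal of 6 gene lists (vertical axis) in each cortical array; red points are the 3 host replicates and blue points the 4 homeostatic C57BL/6 replicates, with symbols for the replicate number and lines for the group means. The resident macrophage list lies at 8.12 to 8.40 in all host arrays and at 10.26 to 10.36 in all homeostatic arrays, while the leukocyte-wide list spreads from 9.21 to 11.07 among the host arrays.

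Genes passed in both directions in like number, and most of those past 3 log2 units were lower. Of 14346 genes, 594 passed (4.14%), 288 of them higher (2.01%) and 306 lower (2.13%) in host cells, and the median difference of all genes was −0.01. Among the genes that passed lower, 146 differed by more than 2 log2 units, 66 by more than 3 and 29 by more than 4. Among those that passed higher, 117 differed by more than 2 log2 units, 23 by more than 3 and 6 by more than 4. The groups did not overlap for 2133 genes (14.9%), and 520 genes both passed and did not overlap (3.62%). Counts of list members and cases without overlap given below are to be read beside these shares. The count was 345 without host replicate 2 and 356 without host replicate 3, and 226 with the proximal tubule level of each array as a covariate. Centring each array on the leukocyte-wide genes moved the median of all genes to 1.07, and 7960 genes then passed higher and 131 lower, so directions hold relative to the scale of the deposited values.

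**Figure D2:**
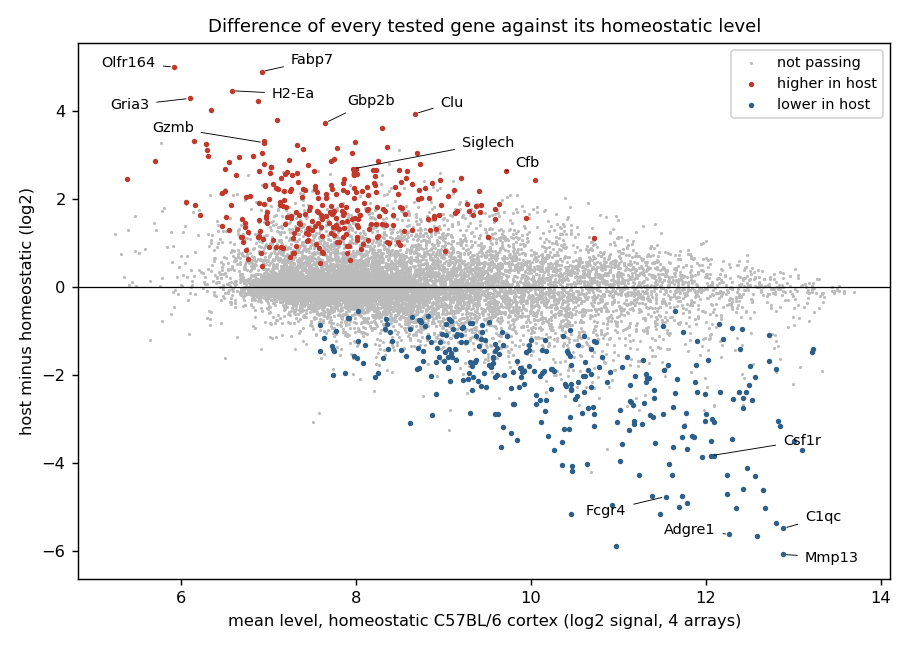
Difference of each of the 14346 tested genes, host minus homeostatic in log2 units (vertical axis), against its mean level in the 4 homeostatic C57BL/6 cortical arrays (horizontal axis, log2 signal). Red genes passed higher and blue genes passed lower in host cells, and the blue genes reach −6.07 (Mmp13).

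Promoters of 4 genes that mark both sides of the difference are shown because these genes have RefSeq entries and stand for groups described below: C1qc, Mmp12 and Mmp13 for the macrophage genes that fell, and Gbp2b for the interferon-inducible genes that rose. Each run covers 250 bases before to 50 bases after a transcription start (RefSeq, GRCm38.p6, read on the strand of the gene), with motif matches in capitals. The letters searched on both strands were GAGGAAG (the core of PU.1, the transcription factor of myeloid cells), TGANTCA (AP-1), and GAAA, any 2 bases and GAAA (the interferon-stimulated response element). Among the printed runs, C1qc was searched for PU.1 only and Gbp2b for the response element only. Mmp12 and Mmp13 were searched for PU.1 and AP-1. In C1qc (chr4:136892865-136893164, minus strand) the PU.1 letters begin 194 bases before the start. Mmp12 has 2 starts in the table, with PU.1 letters 87 bases before the first (chr9:7344147-7344446, plus strand) and AP-1 letters 44 bases before the second (chr9:7347124-7347423, plus strand). Mmp13 (chr9:7272264-7272563, plus strand) has AP-1 letters 35 bases before its start and no PU.1 letters. Gbp2b (chr3:142594597-142594896, plus strand) has response element letters 137 bases before its start.
C1qc: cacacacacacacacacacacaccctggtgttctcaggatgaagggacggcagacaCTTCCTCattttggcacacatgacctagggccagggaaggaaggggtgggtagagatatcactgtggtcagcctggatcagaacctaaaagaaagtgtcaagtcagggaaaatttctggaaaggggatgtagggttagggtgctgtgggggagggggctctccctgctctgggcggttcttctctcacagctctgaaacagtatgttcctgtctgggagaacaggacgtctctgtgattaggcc
Mmp12, first start: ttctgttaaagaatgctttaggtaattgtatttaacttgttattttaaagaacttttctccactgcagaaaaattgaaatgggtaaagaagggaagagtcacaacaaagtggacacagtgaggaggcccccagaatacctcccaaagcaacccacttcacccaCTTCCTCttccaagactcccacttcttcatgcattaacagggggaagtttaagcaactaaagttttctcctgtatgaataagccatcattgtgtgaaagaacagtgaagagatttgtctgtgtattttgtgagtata
Mmp12, second start: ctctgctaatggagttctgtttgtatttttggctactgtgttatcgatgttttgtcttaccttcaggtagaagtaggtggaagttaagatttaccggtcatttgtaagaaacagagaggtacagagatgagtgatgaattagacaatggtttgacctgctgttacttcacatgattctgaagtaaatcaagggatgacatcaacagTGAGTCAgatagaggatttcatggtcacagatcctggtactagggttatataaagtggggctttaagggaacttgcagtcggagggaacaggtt
Mmp13: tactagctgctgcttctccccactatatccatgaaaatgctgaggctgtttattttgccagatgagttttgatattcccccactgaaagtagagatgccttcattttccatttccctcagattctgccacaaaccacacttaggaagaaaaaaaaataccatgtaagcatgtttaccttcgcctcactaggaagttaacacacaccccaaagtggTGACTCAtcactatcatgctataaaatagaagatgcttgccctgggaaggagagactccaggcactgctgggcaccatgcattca
Gbp2b: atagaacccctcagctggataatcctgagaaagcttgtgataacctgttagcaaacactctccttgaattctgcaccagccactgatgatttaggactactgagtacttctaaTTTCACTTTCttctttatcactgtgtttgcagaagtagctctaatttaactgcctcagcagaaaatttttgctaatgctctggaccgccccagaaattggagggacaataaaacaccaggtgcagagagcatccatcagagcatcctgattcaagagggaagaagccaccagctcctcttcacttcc
Of all 32851 promoters in the table, 13.6% held the PU.1 letters, 7.81% the AP-1 letters and 3.44% the response element letters. With only the first promoter of each tested gene (11393), as in the lists, the shares were 13.6%, 5.67% and 3.09%. The PU.1 letters stood in 10 of 22 promoters of the resident macrophage list and in 1 of 15 of the interferon-gamma list. Response element letters stood in 1 of 22 and 6 of 15, and AP-1 letters in 3 of 22 and 4 of 15, in the same order of lists. A match is a stretch of letters and not a measured site.

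Most genes of resident macrophage identity were lower in host cells. Of 28 tested members of the list, 17 passed lower and none higher, and 4 had positive differences, with a median difference of −2.22; without host replicate 3, 15 passed lower (median −1.95), and 14 did with the tubule level as a covariate. C1qc, a chain of the complement starter C1q, was at 7.27, 7.39 and 7.55 in host arrays, against 12.87, 12.78, 12.92 and 12.97 in homeostatic arrays (−5.48 ± 0.25, adjusted p = 1.9e-12). Adgre1, an adhesion receptor widely used to mark mouse macrophages, was at 5.89, 7.45 and 6.61 in host arrays, against 12.18, 12.18, 12.16 and 12.55 in homeostatic arrays (−5.62 ± 0.41, adjusted p = 3.5e-09). For both genes every host array lay more than 4 log2 units below every homeostatic array, host replicate 1 with its near-homeostatic leukocyte level included.

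Mrc1, the mannose receptor, was at 6.29, 7.24 and 7.13 in host arrays, against 11.72, 11.78, 11.68 and 11.96 in homeostatic arrays (−4.90 ± 0.35, adjusted p = 3.5e-09). Csf1r, the receptor for the macrophage growth factors CSF1 and IL-34, was at 8.59, 8.43 and 7.65 in host arrays, against 11.97, 12.06, 12.16 and 12.03 in homeostatic arrays (−3.83 ± 0.25, adjusted p = 1.2e-09). Cx3cr1, the fractalkine receptor, was at 8.47, 9.24 and 8.82 in host arrays, against 12.40, 12.33, 12.18 and 12.28 in homeostatic arrays (−3.46 ± 0.29, adjusted p = 5.1e-08). In these 3 genes the host arrays lay together and well below the homeostatic arrays, with no overlap. In bulk RNA, fewer cells of a type and less RNA per cell cannot be told apart.

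The other C1q chains, C1qa (−4.28 ± 0.41) and C1qb (−2.72 ± 0.44), fell as well, as did Apoe (a lipid carrier, −2.51 ± 0.21) and Axl (a receptor tyrosine kinase for dying cells, −2.27 ± 0.33). Ms4a7, a membrane protein gene of macrophages, fell by 5.16 ± 0.45. Hpgd and Hpgds, enzymes that break down and make prostaglandins, fell by 5.02 ± 0.56 and 3.94 ± 0.69. Other macrophage genes did not pass: Mertk, another receptor for dying cells, was at 7.17, 8.13 and 7.04 in host arrays, against 6.94 to 7.12 in homeostatic arrays (adjusted p = 0.69), and Timd4 at 7.67, 8.20 and 7.62, against 7.61 to 7.83 (adjusted p = 0.86). In the homeostatic arrays, whose medians were 7.64 to 7.69, Mertk lay below the median and Timd4 close to it. A fall could have gone unseen in such dim probesets. Spi1, which encodes PU.1, was at 8.24, 7.69 and 8.18 in host arrays, against 9.99, 8.94, 9.83 and 10.76 in homeostatic arrays (−1.84 ± 0.39, adjusted p = 0.0064).

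**Figure D3:**
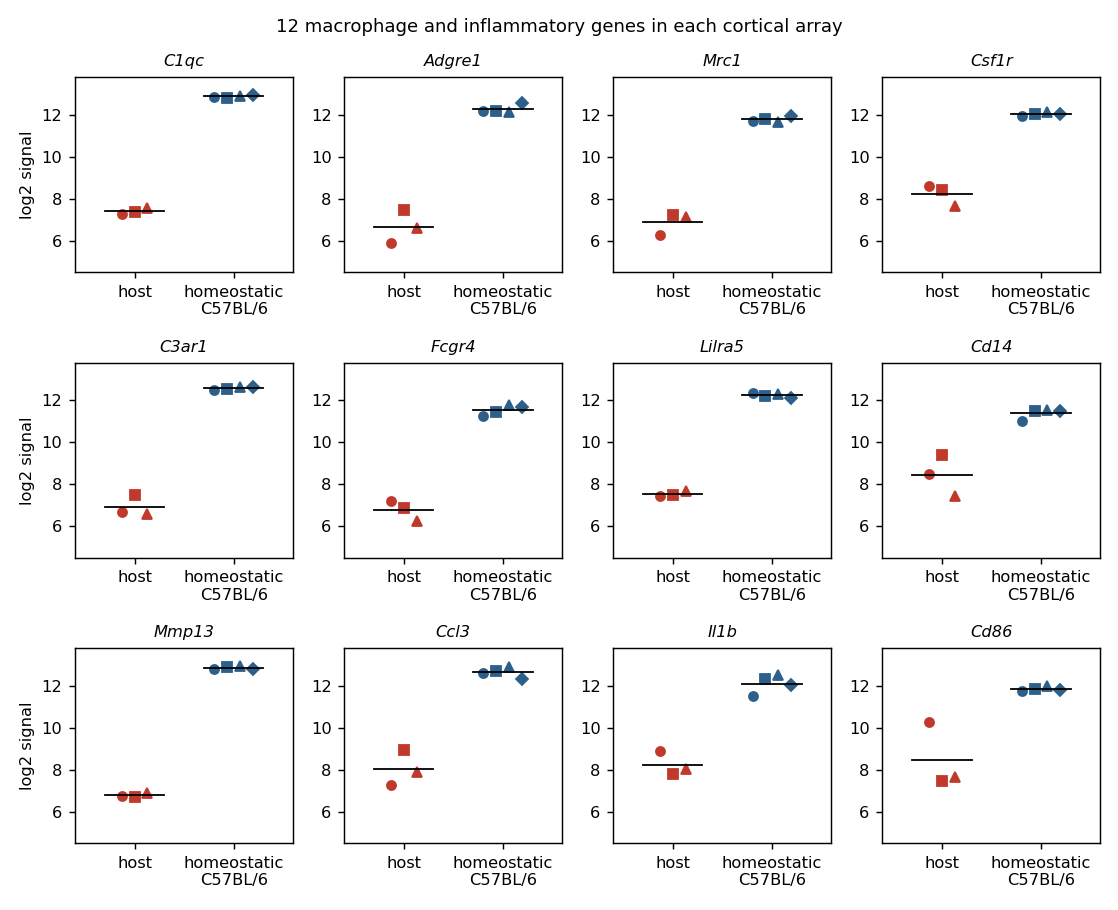
Log2 signal (vertical axis) of 12 macrophage and inflammatory genes in each cortical array; red points are the 3 host replicates, blue points the 4 homeostatic C57BL/6 replicates and lines the group means. No panel has an overlap of the groups, and Cd86 is the panel where host replicate 1 (10.28) lies nearest to the homeostatic arrays.

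Several complement receptor and recognition genes moved with the macrophage genes, while complement factor B moved the other way. Of 15 complement genes, 8 passed lower and 2 higher (median −1.71; 6 lower and 2 higher without host replicate 3, 6 lower and 1 higher with the tubule covariate). This list takes in C1q, whose chains are also in the macrophage list. C3ar1, the receptor for the anaphylatoxin C3a, was at 6.70, 7.48 and 6.60 in host arrays, against 12.49, 12.55, 12.66 and 12.64 in homeostatic arrays (−5.66 ± 0.29, adjusted p = 7.9e-12). C5ar1, the receptor for C5a, fell by 4.03 ± 0.46 (adjusted p = 4.3e-06), and Itgam, a chain of complement receptor 3, by 1.71 ± 0.30 (adjusted p = 0.001). Cfb, a serine protease of the alternative pathway, was at 11.76, 12.79 and 12.53 in host arrays, against 10.64, 10.19, 8.85 and 9.20 in homeostatic arrays (2.64 ± 0.42, adjusted p = 0.00037).

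Of 6 Fc receptor genes, 5 passed lower and none higher (median −2.12; 4 without host replicate 3, 3 with the tubule covariate). Fcgr4, an activating receptor for IgG, was at 7.21, 6.86 and 6.27 in host arrays, against 11.25, 11.43, 11.80 and 11.68 in homeostatic arrays (−4.76 ± 0.78, adjusted p = 0.0005). Fcgr3 fell by 3.07 ± 0.36, Fcgr1, the high-affinity IgG receptor, by 2.16 ± 0.37 and Fcgr2b, the inhibitory one, by 1.81 ± 0.39, the last losing its call without host replicate 2 (adjusted p = 0.096). Fcer1g, the signalling chain of the activating receptors, fell by 2.07 ± 0.53 and lost its call without host replicate 3 (−1.31, adjusted p = 0.25) or homeostatic replicate 4 (adjusted p = 0.077).

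Of 23 genes of inhibitory and paired receptors, 13 passed lower and none higher (median −2.14; 10 lower and 1 higher without host replicate 3, and 8 lower with the tubule covariate). Lilra5, an activating receptor of the leukocyte immunoglobulin-like family, was at 7.47, 7.48 and 7.70 in host arrays, against 12.36, 12.21, 12.32 and 12.10 in homeostatic arrays (−4.70 ± 0.36, adjusted p = 8.8e-09). Siglece, an inhibitory receptor for sialic acid, was at 7.29, 7.35 and 7.41 in host arrays, against 11.33, 11.48, 11.57 and 12.08 (−4.27 ± 0.59, adjusted p = 6.7e-05). Both genes varied little among the host arrays, where the leukocyte-wide list spread widely. The C-type lectin gene Clec4a1 (−4.07 ± 0.53), Cd300ld (−3.56 ± 0.40) and Lilrb4a (−3.15 ± 0.37) fell too, and so did Klra2, a gene of the Ly49 receptor family (−5.02 ± 0.56).

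Some microbial and damage sensors fell too. Of 20 pattern recognition receptors, 6 passed lower and none higher (median −1.44; 4 lower without host replicate 3, 3 lower with the tubule covariate). Cd14, the lipopolysaccharide co-receptor, was at 8.48, 9.42 and 7.44 in host arrays, against 11.04, 11.49, 11.53 and 11.52 in homeostatic arrays (−2.95 ± 0.36, adjusted p = 1.4e-05). Its partner Tlr4 fell by 3.06 ± 0.64 (adjusted p = 0.0055; 0.056 with the tubule covariate). Clec7a, the beta-glucan receptor dectin-1, fell by 3.05 ± 0.34 and Nlrp3, an inflammasome sensor, by 2.11 ± 0.38. Of 20 phagocytic and scavenger receptors, 6 passed lower (4 without host replicate 3 and 4 with the tubule covariate), among them Msr1 (scavenger receptor A, −3.22 ± 0.58) and Mgl2 (a galactose-type lectin, −3.52 ± 0.53), while Cd36, a lipid scavenger receptor, was at 10.41, 11.21 and 12.01 in host arrays, against 12.22 to 12.51 (adjusted p = 0.15).

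Proteases and several cytokines and chemokines of macrophages were lower in host cells. Mmp13, collagenase 3, was at 6.78, 6.72 and 6.92 in host arrays, against 12.83, 12.93, 12.96 and 12.80 in homeostatic arrays (−6.07 ± 0.41, adjusted p = 1.2e-09). Mmp12, macrophage elastase, was at 6.81, 8.44 and 7.10 in host arrays, against 12.65, 12.93, 12.81 and 12.84 (−5.36 ± 0.45, adjusted p = 4.4e-08). Both genes were high in all homeostatic arrays and low in all host arrays; their promoters are printed above. Tgfbi, a matrix protein induced by TGF-beta, fell by 2.87 ± 0.41 (adjusted p = 0.00011).

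Of 16 inflammatory cytokine genes, 4 passed lower and none higher (median −0.31; 3 lower without host replicate 3, 4 lower with the tubule covariate). Il1b was at 8.91, 7.81 and 8.03 in host arrays, against 11.51, 12.31, 12.51 and 12.05 in homeostatic arrays (−3.84 ± 0.51, adjusted p = 4.8e-05). Il18, an inducer of interferon-gamma, fell by 3.71 ± 0.63 (adjusted p = 0.00084), and Tnfsf13b, the B cell survival factor BAFF, by 2.01 ± 0.35 (adjusted p = 0.0011). Of 17 myeloid chemokine genes, 7 passed lower and none higher (median −1.19), a count that was 2 without host replicate 3 and 2 with the tubule covariate. Ccl3, an inflammatory chemokine, was at 7.27, 8.95 and 7.88 in host arrays, against 12.64, 12.72, 12.89 and 12.36 (−4.62 ± 0.75, adjusted p = 0.00045). Ccl4 fell by 2.06 ± 0.32 (adjusted p = 0.00027), whereas Ccl5 was at 11.47, 11.98 and 10.47 in host arrays, against 9.49 to 10.37 in homeostatic arrays, and did not pass (adjusted p = 0.24).

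Some genes of antigen presentation by MHC class II fell, and the median of the list was close to that of the leukocyte-wide genes. Of 16 class II pathway genes, 6 passed lower and none higher (median −1.03; 4 lower without host replicate 3, 3 lower with the tubule covariate), beside a median of −0.96 for the 25 leukocyte-wide genes, of which 2 passed lower. With each array centred on the leukocyte-wide genes, the class II median was 0.05. H2-Eb1, the beta chain of the I-E molecule, was at 11.31, 11.06 and 10.74 in host arrays, against 12.63, 12.64, 12.83 and 12.78 in homeostatic arrays (−1.68 ± 0.18, adjusted p = 2.2e-06). Cd74, the invariant chain, was at 11.64, 10.94 and 10.20, against 12.70 to 12.88 (−1.87 ± 0.33, adjusted p = 0.0012), and Ciita, the master regulator of the class, fell by 1.45 ± 0.29 (adjusted p = 0.0038; 0.1 with the tubule covariate). H2-Ob, a chain of the peptide-loading modulator H2-O, was at 9.10, 7.43 and 8.93, against 11.03 to 11.33 (−2.68 ± 0.42, adjusted p = 0.00032). It is also one of the 7 strain genes, at 7.70 to 9.04 in homeostatic BALB/c arrays and 7.20 to 7.48 in donor cortex.

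Of 16 class I genes, none passed limma's test in either direction and 1 had an unadjusted p under 0.05 (median 0.06; −0.01 for all genes). B2m, the common light chain, was at 13.49, 13.52 and 13.32 in host arrays, against 13.47 to 13.58 in homeostatic arrays (adjusted p = 0.92). Of 23 genes of costimulation and maturation, 1 passed lower and 1 higher (2 lower and 1 higher without host replicate 3, 1 lower and none higher with the tubule covariate). Over all genes 2.13% passed lower and 2.01% higher, so the list is not set apart by these counts. Cd86, the costimulatory ligand of CD28, was at 10.28, 7.46 and 7.65 in host arrays, against 11.75, 11.88, 12.01 and 11.82 (−3.40 ± 0.55, adjusted p = 0.00042). Socs2, a suppressor of cytokine signalling, was at 8.41, 9.84 and 9.97, against 6.14 to 6.70 (3.11 ± 0.71, adjusted p = 0.011; 0.068 without host replicate 2 and 0.074 without host replicate 3). Cd40, the receptor for T cell help, did not pass (8.38, 9.70 and 8.17, against 8.39 to 8.79, adjusted p = 0.97).

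Markers of classical dendritic cells and monocytes were uneven across the host arrays. Of 15 type 1 dendritic cell genes, 2 passed lower and none higher (median −0.28; 2 lower and 1 higher without host replicate 3, 1 lower with the tubule covariate). Cadm1, an adhesion molecule of these cells, was at 9.92, 9.59 and 9.83 in host arrays, against 12.19, 12.24, 12.35 and 12.47 in homeostatic arrays (−2.53 ± 0.23, adjusted p = 1.2e-07), and Rab7b, an endosomal GTPase, fell by 2.21 ± 0.42. Clec9a, the type 1 receptor for dead cells, was at 12.16, 9.01 and 7.10 in host arrays, against 11.71 to 12.51, so that host replicate 1 lay within the homeostatic range and the others below it (adjusted p = 0.12; 0.0046 without host replicate 1). Flt3, the dendritic cell growth factor receptor, was at 11.53, 9.01 and 7.50, against 8.39 to 9.37, with host replicate 1 above all homeostatic arrays and host replicate 3 below them (adjusted p = 0.9).

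Of 16 type 2 dendritic cell genes, 4 passed lower and none higher (median −0.70; 4 lower without host replicate 3, 3 with the tubule covariate), but the 4 were Clec4a1, Clec4a3, Mgl2 and Itgam, genes that macrophages also express. Cd209a, a lectin of type 2 cells, was at 10.61, 8.29 and 7.71 in host arrays, against 9.85 to 11.24 (adjusted p = 0.12; 0.0089 without host replicate 1), and Sirpa, which encodes CD172a, at 10.95, 9.87 and 9.72, against 11.48 to 11.70 (adjusted p = 0.17). Of 23 monocyte genes, 6 passed lower and none higher (median −0.53, and 0.54 with arrays centred on the leukocyte-wide genes). The lower count was 4 without host replicate 3 and 4 with the tubule covariate. Csf1r, Itgam and Cd14, described above, are among the 6, so these calls are not separate from the earlier ones. Lyz2, lysozyme, was at 8.68, 9.29 and 8.87 in host arrays, against 12.20, 11.79, 12.19 and 11.78 (−3.04 ± 0.35, adjusted p = 4.3e-06). Ccr2, a chemokine receptor needed for monocytes to exit the marrow, was at 11.91, 10.03 and 10.21, against 12.37 to 12.78 (−1.78 ± 0.47, adjusted p = 0.03), and lost its call without host replicate 2 or 3 or homeostatic replicate 2, 3 or 4 (adjusted p up to 0.2).

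Some plasmacytoid dendritic cell genes were higher in host cells. Of 13 tested, 4 passed higher and none lower (median 0.76), and 5 passed higher without host replicate 3 (median 1.17) and 3 with the tubule covariate. Siglech, the defining receptor of these cells, was at 12.78, 11.01 and 8.20 in host arrays, against 7.89, 8.03, 7.95 and 8.01 in homeostatic arrays (2.69 ± 0.59, adjusted p = 0.0081; 0.051 without host replicate 2). Host replicate 1 was thus far above the homeostatic arrays and host replicate 3 only just above them. Ccr9, a homing receptor, was at 12.00, 9.77 and 7.12, against 6.89 to 7.45 (2.49 ± 0.64, adjusted p = 0.025), with host replicate 3 inside the homeostatic range, and its call ended without host replicate 1 (1.30, adjusted p = 0.15) or 2 (adjusted p = 0.099) or homeostatic replicate 1 (adjusted p = 0.054) or 2 (adjusted p = 0.064). The other members that passed were Cox6a2 (1.29 ± 0.31) and Pacsin1 (0.98 ± 0.28), and both lost their calls without host replicate 1 (adjusted p = 0.11 and 0.27) and without some other single arrays. Bst2, a tetherin also induced by interferon, was at 11.28, 11.29 and 9.51, against 9.40 to 10.07 (adjusted p = 0.094), and passed without host replicate 3 (1.61, adjusted p = 0.0012). The level of the list followed the leukocyte-wide level across the host arrays: 10.74, 9.94 and 8.73 in host replicates 1, 2 and 3, against 8.80 to 9.03 in homeostatic arrays. Its SD was 1.01 among host arrays and 0.11 among homeostatic arrays. The fit shares 1 spread per gene over all groups. Standard errors and adjusted p of genes as uneven as Siglech and Ccr9 thus do not reflect their wider host spread.

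A few cytotoxic genes rose as well. Of 17 natural killer and cytotoxic genes, 3 passed higher and 1 lower (median 0.61), and 6 passed higher and none lower without host replicate 3, and 1 higher and none lower with the tubule covariate. Gzmb, the killer protease granzyme B, was at 11.49, 11.25 and 7.96 in host arrays, against 6.68, 7.52, 6.83 and 6.76 in homeostatic arrays (3.29 ± 0.51, adjusted p = 0.00027). Ncr1, which encodes the natural killer receptor NKp46, was at 8.56, 8.81 and 8.72, against 6.21, 6.50, 7.32 and 5.98 (2.19 ± 0.44, adjusted p = 0.0036; 0.088 with the tubule covariate). Nkg7, a granule protein, was at 9.31, 9.13 and 10.47, against 7.24 to 7.53 (2.22 ± 0.44, adjusted p = 0.0033; 0.057 with the tubule covariate). In all 3 genes every host array lay above every homeostatic array, beside 14.9% of all genes without overlap in either direction. The member that passed lower was Cd244a, a receptor that other leukocytes also carry (−1.32 ± 0.36, adjusted p = 0.037; up to 0.31, without host replicate 3, and not passing without host replicate 2 or homeostatic replicate 2, 3 or 4 either). Gzma was at 11.79, 11.73 and 7.80, against 9.32 to 10.05 (adjusted p = 0.79), so host replicates 1 and 2 lay above the homeostatic range and host replicate 3 below it. Cst7, an inhibitor of granule proteases outside the list, was at 9.01, 9.29 and 8.09, against 7.33 to 7.53 (1.34 ± 0.21, adjusted p = 0.00027), above the homeostatic range in all host arrays.

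Of 17 T cell genes, none passed limma's test in either direction and 4 had an unadjusted p under 0.05 (median 0.04). Cd3e, a chain of the T cell receptor complex, was at 8.40, 7.65 and 7.72 in host arrays, against 7.79 to 8.36 (adjusted p = 0.94); 3 members passed higher without host replicate 3. Some B cell genes were lower: of 14, 5 passed lower and none higher (median −0.76; 0.32 with arrays centred on the leukocyte-wide genes; 3 lower without host replicate 3, 5 with the tubule covariate). Bank1, a B cell adaptor, was at 6.33, 6.31 and 6.72 in host arrays, against 9.58, 9.75, 9.38 and 8.53 in homeostatic arrays (−2.85 ± 0.60, adjusted p = 0.0057). Fcer2a, the low-affinity IgE receptor, was at 6.33, 6.44 and 6.43, against 9.39, 7.32, 7.67 and 7.68 (−1.61 ± 0.33, adjusted p = 0.0048), so that homeostatic replicate 1 was the highest. Of 10 neutrophil genes, only Lcn2 passed, and S100a8 was at 6.13, 9.45 and 7.16, against 6.11 to 8.49 (adjusted p = 0.83).

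Interferon-inducible genes moved in both directions. Of 23 interferon-gamma response genes, 3 passed higher and 2 lower (median 0.47; the same counts without host replicate 3, 1 and 1 with the tubule covariate). The lower ones were Fcgr1 and Ciita, described above, and the higher ones Gzmb, Iigp1 and Cxcl11. Iigp1, an immunity-related GTPase, was at 12.30, 12.69 and 12.46 in host arrays, against 10.13, 10.16, 10.14 and 9.76 in homeostatic arrays (2.43 ± 0.56, adjusted p = 0.012; 0.06 without host replicate 2). Cxcl11, a ligand of CXCR3, was at 8.30, 9.91 and 7.70, against 7.20 to 7.51 (1.31 ± 0.32, adjusted p = 0.02; 0.19 without host replicate 2 and 0.054 without homeostatic replicate 2). Gbp2b, a guanylate-binding GTPase outside the list, was at 11.15, 11.97 and 11.04, against 7.94, 7.38, 7.93 and 7.34 (3.74 ± 0.60, adjusted p = 0.0004). Its host arrays were all more than 3 log2 units above its homeostatic arrays.

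Other genes of the interferon-gamma list had values that did not pass. Cxcl9, another CXCR3 ligand, was at 11.47, 10.41 and 9.82 in host arrays, against 9.86 to 10.85 (adjusted p = 0.91), and Cxcl10 at 11.74, 11.70 and 10.48, against 8.55 to 10.68 (adjusted p = 0.14). Irf1, a transcription factor of the response, was at 11.13, 10.21 and 9.38, against 8.56 to 9.80 (adjusted p = 0.34). Of 26 type I interferon response genes, 3 passed lower and none higher (median −0.47; 1 higher and 1 lower without host replicate 3, 1 lower with the tubule covariate). Oas2, a sensor of double-stranded RNA, was at 7.68, 7.68 and 7.47, against 9.65, 10.94, 10.12 and 9.99 (−2.57 ± 0.45, adjusted p = 0.001). The others were Xaf1 (−1.90 ± 0.45), which lost its call without host replicate 3 (adjusted p = 0.14) or homeostatic replicate 3 (adjusted p = 0.056), and Oas1a (−1.82 ± 0.52), which lost it without any 1 array other than homeostatic replicate 1 or 4 (adjusted p up to 0.18).

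**Figure D4:**
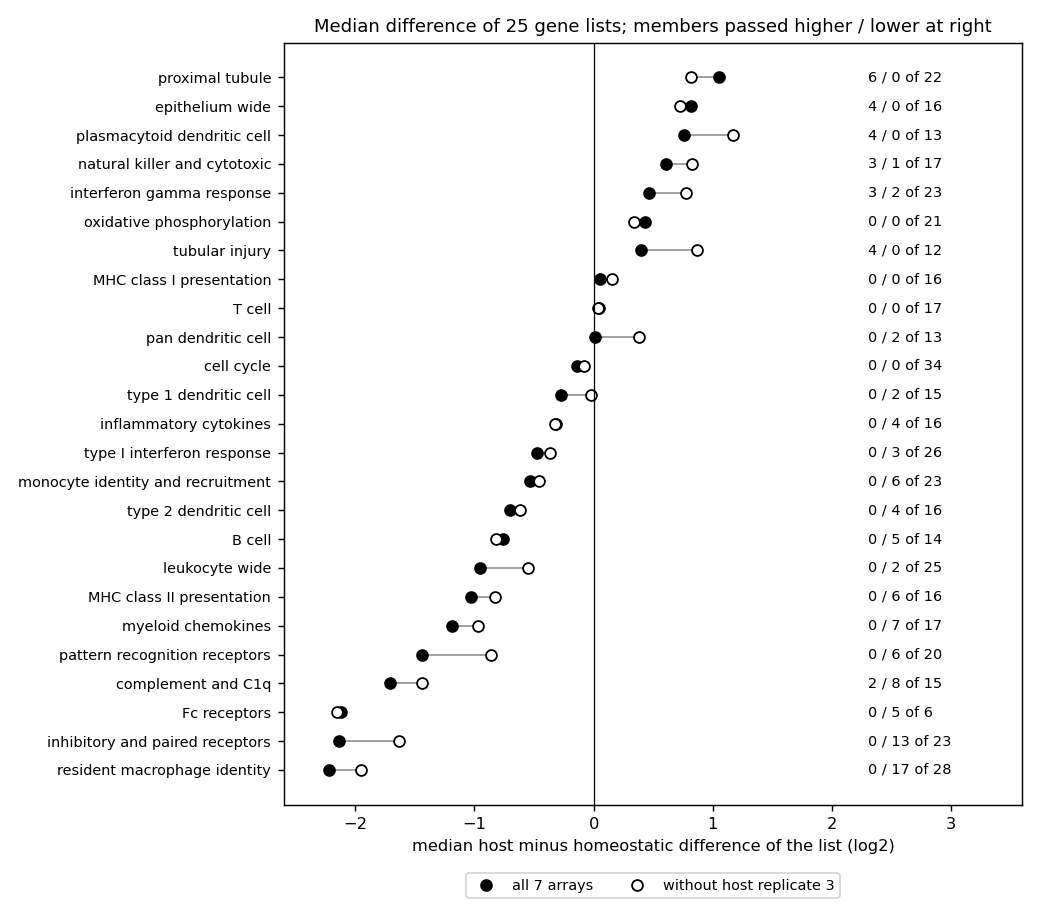
Median log2 difference, host minus homeostatic, of 25 gene lists (horizontal axis), for all 7 arrays (filled) and without host replicate 3 (open); the text at right gives the members that passed higher, those that passed lower and the number tested. With all 7 arrays, the macrophage, paired receptor and Fc receptor lists lie lowest of those plotted, and the proximal tubule, epithelium-wide and plasmacytoid dendritic cell lists highest; without host replicate 3 the epithelium-wide median (0.73) lies below that of the tubular injury list (0.87).

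Some epithelial genes were higher in the host arrays. Of 22 proximal tubule genes, 6 passed higher and none lower (median 1.05; 4 higher without host replicate 3, 1 higher with the list's own level as a covariate). Cubn, an endocytic receptor of the proximal tubule, was at 9.97, 10.91 and 10.98 in host arrays, against 9.40, 7.97, 6.75 and 7.77 in homeostatic arrays (2.65 ± 0.36, adjusted p = 6.2e-05). Slc5a12, a lactate transporter, was at 10.64, 12.04 and 13.04, against 11.15, 8.16, 6.97 and 6.89 (3.62 ± 0.67, adjusted p = 0.002), with homeostatic replicate 1 inside the host range. Of 16 epithelium-wide genes, 4 passed higher (1 without host replicate 3 and 1 with the tubule covariate), among them Cdh1, E-cadherin (11.56, 11.43 and 11.14, against 9.27 to 10.34, 1.78 ± 0.39, adjusted p = 0.0083). Of 15 collecting duct genes 3 passed higher (1 without host replicate 3 and 1 with the tubule covariate), one of the 3 being Slc26a4, the exchanger pendrin (1.92 ± 0.35), and none of 14 genes of the loop and distal tubule passed limma's test (2 with an unadjusted p under 0.05). The tubule level of an array runs against its leukocyte-wide level in the host group, and its part in the other results was not tested beyond the fits that take it as a covariate.

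Some genes that injured tubules are known to switch on were higher as well. Of 12, 4 passed higher and none lower (median 0.40; 3 higher without host replicate 3 and 3 with the tubule covariate). Clu, the chaperone clusterin, was at 12.44, 12.96 and 12.46 in host arrays, against 8.54, 8.76, 8.88 and 8.53 in homeostatic arrays (3.94 ± 0.55, adjusted p = 7.8e-05). Havcr1, kidney injury molecule 1, was at 10.72, 10.63 and 7.29, against 6.33, 6.06, 6.20 and 6.55 (3.26 ± 0.50, adjusted p = 0.00027), highest in host replicates 1 and 2, whose proximal tubule level was below that of host replicate 3. Lcn2, the iron-binding lipocalin NGAL, was at 8.85, 10.36 and 9.61, against 6.86 to 7.21 (2.59 ± 0.32, adjusted p = 1.6e-05). Cp, the copper protein ceruloplasmin, was at 8.42, 10.75 and 10.12, against 6.56 to 7.22 (2.81 ± 0.70, adjusted p = 0.021), and lost its call without host replicate 2 (adjusted p = 0.16) or 3 (adjusted p = 0.1) or homeostatic replicate 4 (adjusted p = 0.06).

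Genes outside these groups rose further. Fabp7, a fatty acid-binding protein, was at 11.79, 11.93 and 11.75 in host arrays, against 6.73, 6.95, 7.04 and 6.98 in homeostatic arrays (4.90 ± 0.24, adjusted p = 5.2e-12). Gria3, a glutamate receptor subunit, was at 11.05, 10.25 and 9.87, against 5.98, 6.17, 6.26 and 5.99 (4.29 ± 0.44, adjusted p = 9.4e-07). Cyp4a14, a fatty acid hydroxylase of the proximal tubule, was at 9.74, 11.58 and 12.02, against 6.83 to 6.97 (4.23 ± 0.43, adjusted p = 1e-06). These genes were far apart between the groups in all arrays; Fabp7 was level across the host arrays, Cyp4a14 followed the order of the tubule list and Gria3 that of the leukocyte-wide list. Hspb8, a small heat shock protein, rose by 2.65 ± 0.20 (adjusted p = 8.8e-09).

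**Figure D5:**
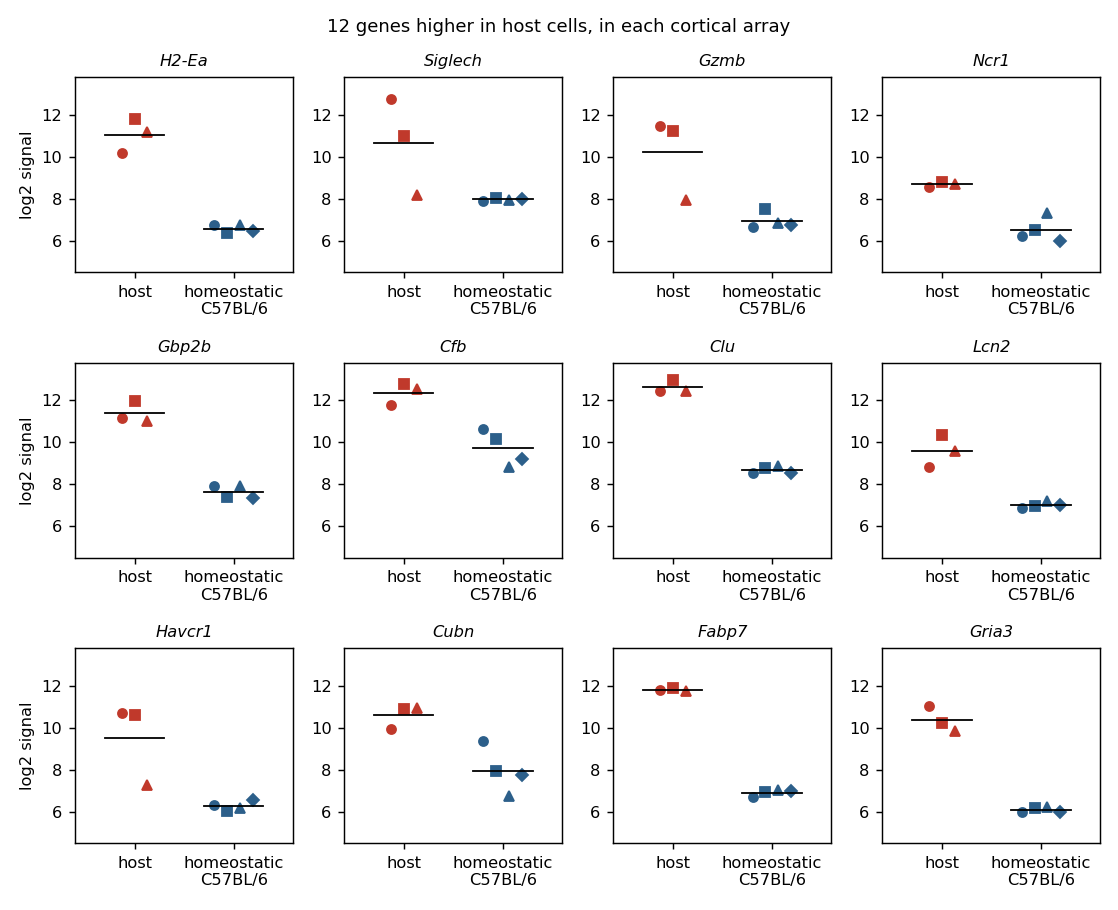
Log2 signal (vertical axis) of 12 genes that passed higher in host cells, in each cortical array; red points are the 3 host replicates, blue points the 4 homeostatic C57BL/6 replicates and lines the group means. Siglech, Gzmb and Havcr1 are lowest in host replicate 3, whereas Fabp7 is level across the host arrays.

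Several programs showed few or no calls. None of 34 cell cycle genes passed limma's test (1 with an unadjusted p under 0.05, median −0.14), nor any of 16 genes of the unfolded protein response (1 with an unadjusted p under 0.05). None of 21 oxidative phosphorylation genes passed either (2 with an unadjusted p under 0.05), although all 21 had positive differences (median 0.43). Of 21 genes of hypoxia and glycolysis, 1 passed lower (0 without host replicate 3 and 0 with the tubule covariate), beside 2.13% of all genes. Of 28 immediate early genes, 4 passed lower and none higher (median −0.39), a count that was 1 without host replicate 3 and 0 with the tubule covariate. Among them was Dusp1 (9.99, 11.15 and 10.91, against 11.79 to 12.07, −1.22 ± 0.28), which lost its call without host replicate 1 (adjusted p = 0.073).

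The cortical difference was then tested against that of the medulla, as host minus homeostatic C57BL/6 in cortex minus the same in medulla. Cortex and medulla of a group came from the same mice, and the fit did not use this pairing. Of 14346 genes, 129 passed (0.899%), 57 higher and 72 lower, with a median of −0.08. The count was 85 without host cortical replicate 2 and 183 with mouse as a random block. None of 28 resident macrophage genes passed (median 0.18), and the list stood at 8.12 to 8.40 in host cortex, against 10.26 to 10.36 in homeostatic cortex, and at 8.16 to 8.35 in host medulla, against 10.30 to 10.62 in homeostatic medulla. Both regions thus had a lower macrophage list in every host array. A difference that does not pass does not show that the regions act alike, and the leukocyte-wide list differed: it stood at 8.13 to 9.24 in host medulla, against 11.40 to 11.42 in homeostatic medulla, and 3 of its 25 members passed higher.

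Gatm, an enzyme of creatine synthesis, was at 12.07, 11.91 and 12.47 in host cortex, against 11.96 to 12.16 in homeostatic cortex, and at 6.35, 5.97 and 5.87 in host medulla, against 11.74 to 11.99 in homeostatic medulla (interaction 5.91 ± 0.44, adjusted p = 2.6e-08). The host level of Gatm was thus near the homeostatic level in the cortex and low in all medullary host arrays. Gatm is also in the proximal tubule list, of which 3 of 22 members passed higher in this test. That list stood at 10.47 to 11.61 in host cortex, against 9.26 to 10.84 in homeostatic cortex. In host medulla it stood at 7.30 to 7.84, against 7.70 to 8.72 in homeostatic medulla. The part of the tubule level in the region test was not tested here. Cxcl9 was at 6.92, 7.16 and 6.92 in host medulla, against 10.84 to 10.91 in homeostatic medulla (interaction 4.28 ± 0.76, adjusted p = 0.0046), and Kmo, an enzyme of tryptophan breakdown, at 7.79, 6.47 and 6.47, against 10.65 to 11.64 (5.43 ± 0.73, adjusted p = 0.00026). Fabp7 was at 6.67, 7.06 and 6.86 in host medulla, against 6.98 to 7.28 in homeostatic medulla (5.18 ± 0.34, adjusted p = 4.6e-09), so no host medullary array was above that range. In the other direction, Ranbp3l was at 12.87, 11.54 and 12.25 in host medulla, against 6.45 to 7.77 (−5.47 ± 0.78, adjusted p = 0.00039), and Npy, neuropeptide Y, at 12.32, 12.18 and 12.81, against 7.96 to 8.27 (−4.50 ± 0.64, adjusted p = 0.00039), while neither passed in the cortex. Bst1, an ectoenzyme of leukocytes and stroma, had an interaction of −5.24 ± 0.81 (adjusted p = 0.0009).

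The host difference was last tested against that of donor cells of the same grafts, as host minus C57BL/6 in cortex minus donor minus BALB/c in cortex. Of 14346 genes, 111 passed (0.774%), 62 higher and 49 lower, with a median of 0.12. This count ranged from 39 (without donor replicate 1) to 539 (without donor replicate 3) when 1 array was left out. Host and donor cells came from the same grafts, and the fit did not use this pairing. With mouse as a random block, 244 genes passed. Of 28 resident macrophage genes, 8 passed lower and 1, Timd4, higher (0.88; median of the list −1.14). C1qc was at 12.76, 12.17 and 12.34 in donor cortex, against 12.53 to 12.66 in homeostatic BALB/c cortex (interaction −5.31 ± 0.35, adjusted p = 5.3e-09). C3ar1 was at 12.23, 11.98 and 11.71 in donor cortex, against 12.36 to 12.60 (−5.18 ± 0.41, adjusted p = 9e-08), and Adgre1 at 11.36, 10.55 and 10.52, against 11.48 to 11.90 (−4.74 ± 0.57, adjusted p = 0.00011). The donor arrays of C1qc overlapped the BALB/c range and those of C3ar1 and Adgre1 lay below it, and for all 3 genes every host cortical array was lower than every donor array.

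C5ar1 (−4.42 ± 0.65), Klra2 (−4.38 ± 0.79), Mrc1 (−3.58 ± 0.50), Lyz2 (−2.63 ± 0.49) and Csf1r (−2.90 ± 0.36) also had lower host than donor differences. Higher host differences were found for Gzmb (3.77 ± 0.71, adjusted p = 0.013), Ncr1 (3.54 ± 0.62, adjusted p = 0.008) and Siglech (3.61 ± 0.84, adjusted p = 0.043). Siglech was at 7.82, 7.87 and 7.75 in donor cortex, against 8.35 to 9.42 in homeostatic BALB/c cortex, and Gzmb at 6.58, 6.57 and 6.96, against 6.89 to 7.73, so neither gene had a high donor array. Clu did not pass this test (−0.21 ± 0.78, adjusted p = 0.91) and was at 12.67, 13.05 and 11.67 in donor cortex, against 7.76 to 8.59. Fabp7 was at 12.33, 11.54 and 10.53 in donor cortex, against 7.02 to 7.38 (0.72 ± 0.34, adjusted p = 0.27). Havcr1 was at 8.38, 9.50 and 9.04, against 6.15 to 6.83 (0.80 ± 0.71, adjusted p = 0.57).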

How the data were processed

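Total RNA of sorted cells was isolated with an RNeasy Micro kit, amplified with the Nugen Ovation One-Direct system, and labelled with the Nugen Encore Biotin module for the arrays, per the labels' protocols. The deposited log2 values were made by the authors with RMA in the package oligo, per the submitters' processing notes, and were used as they stand; no version is given in the sources used. RMA equalises the distribution of all arrays, so that a shift shared by most genes does not show.

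Of 22549 probesets, 20646 with 1 gene symbol in the platform annotation were used, and 551 with several and 1352 with none listed were not; 19227 of the 19272 genes matched the RefSeq gene table. For the 810 genes with more than 1 probeset, the brightest on average over all arrays (28) was used. The 14346 genes tested lay above the 40th percentile of their array in 3 or more arrays of any group.

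Differences were fitted with limma 3.58.1 in R 4.3.3, as 8 group means that share 1 spread per gene, which leaves 20 residual degrees of freedom, and adjusted by Benjamini and Hochberg over all genes tested. The fit was also run on simulated data with the same spread in all groups and unrelated arrays. That run does not cover uneven host arrays or shared mice. Each array carries a mouse number, and precision is limited by how few arrays there are. The main fit has no mouse block, so the region and donor tests treat arrays of the same mouse as separate. Where host arrays spread more than the other groups, the shared spread gives standard errors that do not reflect it.

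The groups, the 46 gene lists (854 of 942 members matched; 1 list had no tested member) and the tests were chosen with earlier results of these data known, so lists are described by counts and medians, with no test of the list. Some genes stand in several lists, so counts of different lists are not separate results. Genes eligible for naming were, of the genes that passed without overlap of the groups, the 15 highest and 15 lowest; of each list, up to 6 members that passed, by adjusted p, and the first 4 that did not; of each interaction, the 6 highest and 6 lowest; and a fixed set of sort and cell type markers. Predicted genes, clone names, pseudogenes and olfactory receptors were left out; H2-Ea and Olfr164 were singled out after their values were seen, and the strain genes come from their own rule.

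Settings varied one at a time were the mouse as a block (a random effect), the groups compared fitted alone, no filter or a strict one (means over the probeset median), another round of quantile normalization, arrays centred on the leukocyte-wide genes, the proximal tubule level as a covariate, a robust variance trend, array weights, the probeset with the largest SD, and leaving out each array. The replicate number as a block was fitted to the groups compared alone, so it changed 2 settings together. List counts without host replicate 3 and with the tubule covariate were added after seeing the data.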

Additional observations from a re-analysis of the deposited data

Results flagged for a closer look

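Of 114 named genes, 6 had 1 homeostatic cortical array far from the other 3 relative to the range of the group, a mark that chance sets on about 1 in 20 such groups. Homeostatic replicate 4 was the highest for Adgre1 (12.55), Tgfbi (11.85) and Socs2 (6.70) and the lowest for Fcgr3 (10.65) and Iigp1 (9.76), and homeostatic replicate 1 was the lowest for Cd14 (11.04). For these 6 genes the host arrays did not overlap the homeostatic arrays, as for 14.9% of all genes and for 520 of the 594 that passed.

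Over all 14346 genes, 0.899% passed the region test. Passing it was 1 way for a gene to be named, so the count of named genes here is not a separate result. For 18 named genes the cortical host difference was unlike the medullary one by limma's interaction test (log2, cortex minus medulla, adjusted over all genes). It was higher for Cfb (2.67), Cd36 (3.72), Cd74 (2.16), Ccr2 (3.04), Bst2 (1.99), Gzmb (3.20), Cxcl9 (4.28), Fabp7 (5.18), Gria3 (4.22), Cyp4a14 (4.17), Cubn (2.54), Kmo (5.43), Gatm (5.91), Hspb8 (2.45) and Cst7 (1.33). It was lower for Ranbp3l (−5.47), Npy (−4.50) and Bst1 (−5.24). The leukocyte-wide level was 9.21 to 11.07 in host cortex and 8.13 to 9.24 in host medulla. The proximal tubule level, whose list holds Cubn and Gatm, was 10.47 to 11.61 in host cortex and 7.30 to 7.84 in host medulla. The part of either level in these values was not tested.

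Over all 14346 genes, 0.774% passed the donor test. Genes were named in part for passing it or for a large cortical host difference, which is part of it, so this count too is not a separate result. For 32 named genes the host difference was unlike the donor difference of the same cortices (log2, host minus donor). It was lower for Mmp13 (−2.93), Mmp12 (−3.82), C3ar1 (−5.18), Adgre1 (−4.74), C1qa (−3.46), C1qc (−5.31), Klra2 (−4.38), Mrc1 (−3.58), Lilra5 (−2.55), Clec4a1 (−3.38), Csf1r (−2.90), Cx3cr1 (−2.20), Apoe (−1.40), C5ar1 (−4.42), Itgam (−1.78), Msr1 (−3.45), Mgl2 (−3.37), Cd14 (−2.24), Lyz2 (−2.63), Cadm1 (−1.93), Itga9 (−2.41) and Tbxas1 (−2.72). It was higher for H2-Ea (4.92), Timd4 (0.88), Siglech (3.61), Cox6a2 (1.96), Gzmb (3.77), Ncr1 (3.54), Gria3 (2.62), Hspb8 (2.41), Cst7 (2.02) and Olfr164 (5.12). Strain and the origin of the cells both differ in this contrast and cannot be told apart.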

How the results depend on the processing

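The count of 594 genes (288 higher and 306 lower) was 590 with mouse as a random block, 586 with a robust variance trend, 597 with the probeset of the largest SD and 445 after a second quantile normalization. It was 313 with the 2 groups fitted alone, 226 with the tubule covariate, 1402 with array weights and 8091 with arrays centred on the leukocyte-wide genes, and 345 (without host replicate 2) to 872 (without host replicate 1) when 1 array was left out. The region count of 129 was 183 with mouse as a random block, 79 with the strict filter, 10065 when centred and 73 with the tubule covariate. It was 378 with array weights, and 85 to 187 with 1 array left out. The donor count of 111 was 244 with mouse as a random block, 37 with the groups alone, 498 with no filter, 43 with the strict filter, 44 after a second quantile normalization, 23 when centred and 2046 with array weights, and 39 to 539 with 1 array left out. The cause of these shifts was not tested.

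The replicate numbers name different mice in host and homeostatic C57BL/6 cortex and so pair nothing in the main comparison. There, same-numbered arrays had deviations correlated at −0.18, −0.0023 and −0.07, and no host array correlated best with its own number. In the region and donor tests, graft arrays of the same number do share a mouse. So do same-numbered homeostatic C57BL/6 arrays of cortex and medulla. With the replicate number as a block the counts were 9 (1 higher and 8 lower), 64 for the region test and 17 for the donor test. These fits held only the groups compared. They left 2 residual degrees of freedom in the main comparison and 7 in each of the other tests.

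Of the 90 named genes that passed, 67 still passed with the tubule covariate, 73 when centred, 64 with the groups alone and 77 to 88 with 1 array left out. With the replicate number as a block 7 of them passed. In no setting did one of the 90 pass in the opposite direction. Sign changes arose in genes that did not pass and in list medians, which have no test. When 1 array was left out, Timd4 ranged from −0.053 to 0.24, Cd40 from −0.37 to 0.39, S100a8 from −0.30 to 1.35, Flt3 from −0.63 to 1.39, Cxcl9 from −0.052 to 0.77 and Gatm from −0.082 to 0.20. Gatm was at −0.015 with array weights. Bst1 was at 0.015 with the tubule covariate, where the tubule list itself had a median of −0.053. Centring, which lifts the median of all genes, gave B2m 0.99, Cd3e 0.93, Ranbp3l 0.80, Npy 0.89 and Bst1 0.23. It gave list medians of 0.051 for MHC class II, 0.28 for chemokine receptors, 0.54 for monocyte genes, 0.37 for type 2 dendritic cell genes, 0.32 for B cell genes, 0.12 for leukocyte-wide genes, 0.13 for phagocytic receptors and 0.18 for Flt3 and CSF receptors. Dim genes lie near the array background, where differences are compressed.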

Other observations

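Some receptors outside the groups described above were also lower in host cells. Of 20 integrin and adhesion genes, 5 passed lower and 1 higher (median −0.33, beside −0.01 for all genes), against 3 lower and none higher without host replicate 3 and the same with the tubule covariate. Itga9, the integrin alpha 9 chain, was at 7.28, 7.88 and 7.54 in host arrays, against 11.38 to 11.68 in homeostatic arrays (−4.02 ± 0.36, adjusted p = 1.2e-07). Of 15 genes of growth factor and cytokine receptors, 4 passed lower and none higher (median −0.90; 3 without host replicate 3 and 3 with the tubule covariate), among them Il10ra, a chain of the receptor for the anti-inflammatory cytokine IL-10, at 9.08, 8.80 and 7.74 in host arrays, against 10.87 to 11.50 (−2.61 ± 0.40, adjusted p = 0.00029). Of 14 chemokine receptor genes, 5 passed lower and 1, Ccr9, higher (median −0.80; 5 lower without host replicate 3 and 3 with the tubule covariate, with 1 higher in both). Ccrl2, a receptor that presents chemerin, was at 7.00, 6.72 and 6.78 in host arrays, against 7.68, 8.08, 9.65 and 9.37 (−1.86 ± 0.40, adjusted p = 0.0072; 0.12 with the tubule covariate).

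Of 15 genes of prostaglandin and tryptophan metabolism, 4 passed lower and none higher (median −0.06; 3 without host replicate 3 and 3 with the tubule covariate). Tbxas1, thromboxane synthase, was at 7.06, 7.07 and 7.35 in host arrays, against 9.88, 10.54, 10.47 and 8.32 (−2.65 ± 0.39, adjusted p = 0.00014; 0.064 with the groups compared fitted alone), with homeostatic replicate 4 the lowest of its group. Over all genes, 2.01% passed higher and 2.13% lower. Of 17 endothelial genes 1 passed higher (0 with the tubule covariate), and of 13 fibroblast and pericyte genes 2 did (1 without host replicate 3 and 1 with the tubule covariate). None of 7 podocyte genes passed limma's test (3 with an unadjusted p under 0.05). Of 13 genes shared by dendritic cells, 2 passed lower, Ciita and Itgax (0 with the tubule covariate), and of 11 heme and iron genes 2 passed higher, Lcn2 and Cp (1 without host replicate 3 and 1 with the tubule covariate). Of 23 lipid and lysosome genes, Fabp7 passed higher and Apoe lower, close to the shares over all genes. Of 17 repair and matrix genes 4 passed lower.

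The probeset that the platform annotation lists as Olfr164, an olfactory receptor, was singled out after its values were seen, and its gene assignment was not checked here, since no probe sequence was used. Its signal was 11.73, 10.46 and 10.57 in host cortex, against 5.63 to 6.30 in homeostatic C57BL/6 cortex (5.0 ± 0.59, adjusted p = 6.1e-06). It was at 10.79, 6.76 and 6.59 in host medulla, against 5.59 to 5.83 in homeostatic C57BL/6 medulla, so 1 medullary host array was as high as the cortical ones. The donor arrays and the homeostatic BALB/c arrays all lay at or below 6.10.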
